A study of Danio rerio with 12 samples.

Results

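Transcripts of 9 zebrafish genes of the glucocorticoid stress axis were followed in whole larvae that lack or carry gcn2 and were kept in low or normal oxygen. The 9 genes were taken from a fixed list of names, chosen with earlier results of these data known. They were found in a table of 35004 genes: 7 by name, and crhb and pomca by the description of the copy. The table lists these 2 under the human-style symbols CRH and POMC. The 9 are 2 upstream hormone genes (crhb, pomca), the steroidogenic gene star, the cortisol-inactivating gene hsd11b2, the receptor gene nr3c1, its co-chaperone fkbp5, and 3 responsive genes (tsc22d3, klf9, tat). All 9 passed the filter on low values, as did 21480 genes in all.

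Each of 4 groups held 3 libraries, and all larvae were 3 days past fertilization, raised at 28.5 °C and exposed for 8 hours. The groups were gcn2 knockout larvae in hypoxia, gcn2 knockout larvae in normoxia, wild-type larvae in hypoxia and wild-type larvae in normoxia. The gene eif2ak4 codes for Gcn2, a kinase that senses a shortage of amino acids and then slows translation. The allele, the oxygen level, the number of larvae in a library and whether larvae shared a clutch are not given in the sources used here. Depth was even, with 15668848 to 16841145 reads recovered per library and 27371 to 27656 genes above 0. The genotype label was checked with eif2ak4, at 1.52 to 1.95 FPKM in the 6 knockout libraries and 3.63 to 4.25 FPKM in the 6 wild-type libraries. The oxygen label was checked with egln3, a hypoxia-induced prolyl hydroxylase gene, at 30.3 to 47.5 FPKM in the hypoxia libraries and 1.84 to 2.71 FPKM in the normoxia libraries.

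In the fish stress axis, corticotropin-releasing hormone from the hypothalamus acts on pituitary cells that cut the Pomc precursor into adrenocorticotropic hormone. That hormone acts on the interrenal gland, the fish counterpart of the adrenal cortex, where Star brings cholesterol into mitochondria for cortisol synthesis. Cortisol binds the glucocorticoid receptor, which is held by Hsp90 and its co-chaperones until the hormone arrives and then acts on transcription. Genes such as fkbp5, tsc22d3, klf9 and tat are widely used as transcriptional readouts of the receptor, although other signals also act on them. Cortisol itself was not measured.

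The readout genes stood highest where the knockout and hypoxia met. Each knockout hypoxia library lay above the other 9 libraries in 5 of the 9 genes (tat, klf9, fkbp5, tsc22d3 and hsd11b2), a pattern that 10.6% of all tested genes had. Transcripts of the receptor gene nr3c1, of pomca and of star passed no test between the genotypes. Levels below are FPKM, reads per gene length and per library divisor. The sources used here do not give how that divisor was set, and it was 0.945 to 1.07 times the reads recovered from the values, below them in hypoxia and above them in normoxia. Fold changes are differences of group means of log2(FPKM + 1) with limma's standard error, which understate the change of low genes, and adjusted p is limma's Benjamini-Hochberg value over all 21480 genes, called under 0.05.

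Upstream, crhb (ENSDARG00000027657, GRCz11 chr24:24847683-24881996, minus strand), the corticotropin-releasing hormone copy expressed in the larval brain, measured 5.74, 5.51 and 4.17 FPKM in knockout hypoxia and 2.98, 3.26 and 3.00 FPKM in knockout normoxia. Wild-type larvae had 3.39, 2.53 and 4.39 FPKM in hypoxia and 4.49, 2.58 and 3.90 FPKM in normoxia. The knockout libraries did not overlap between oxygen levels, whereas the wild-type libraries were spread over a common range. In knockout larvae crhb rose with hypoxia, by 0.58 ± 0.17 (adjusted p = 0.0146). The call was lost without knockout hypoxia replicate 1 (adjusted p = 0.0571). In wild-type larvae the value was -0.07 ± 0.17 (adjusted p = 0.786, 95% interval -0.44 to 0.30). The difference between these 2 hypoxia effects was 0.65 ± 0.24 and did not pass the test (adjusted p = 0.104), although adjusted p came to 0.0472 when replicate 3 of wild-type hypoxia was left out and to 0.0378 when replicate 2 of wild-type normoxia was. In hypoxia crhb was higher in knockout than in wild-type larvae by 0.48 ± 0.17 (adjusted p = 0.0462), with libraries that overlapped. That call was marginal: it was lost with a pseudocount of 0.1, with no filter, under both other scalings by library totals, with the compared groups alone and in 8 of 12 fits that left out a library, with adjusted p up to 0.190 without wild-type hypoxia replicate 2. Between 50 and 110 reads stood behind each crhb value.

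The pituitary precursor gene pomca (ENSDARG00000043135, chr17:33226955-33230039, plus strand) measured 2.08, 2.09 and 1.38 FPKM in knockout hypoxia and 2.63, 2.13 and 1.14 FPKM in knockout normoxia. Wild-type values were 1.45, 0.855 and 1.22 FPKM in hypoxia and 1.24, 1.38 and 0.678 FPKM in normoxia. The groups overlapped, with 14 to 56 reads per library. No contrast of pomca passed the test: hypoxia gave -0.03 ± 0.20 in knockout (95% interval -0.47 to 0.40) and 0.06 ± 0.20 in wild type (95% interval -0.37 to 0.49). Knockout minus wild type was 0.39 ± 0.20 in hypoxia (adjusted p = 0.155) and 0.48 ± 0.20 in normoxia (adjusted p = 0.119), and the normoxia value passed only without knockout normoxia replicate 3 (0.70, adjusted p = 0.0326). The second copies were near the floor of the table, and neither was tested. For crha the knockout libraries had 0 to 0.185 FPKM (0 to 2 reads) and the wild-type libraries 0.169 to 0.644 FPKM (2 to 7 reads). For pomcb all libraries lay between 0.269 and 0.986 FPKM.

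Around these hormones, 16 genes of the brain and pituitary stress axis were listed, and 8 besides crhb and pomca were tested. Of these 8, 2 rose and 1 fell with hypoxia in knockout and 2 rose in wild type, and 2 were higher in knockout at each oxygen level. Over all genes 21.8% rose and 22.2% fell with hypoxia in knockout and 16.8% rose in wild type, while 17.0% were higher in knockout under hypoxia and 7.63% in normoxia, so with 8 genes the hypoxia and genotype-in-hypoxia counts lay near the background. Leaving out single libraries kept the knockout hypoxia count and moved the others by 1, except that the 2 in normoxia became 0 without wild-type normoxia replicate 3. The gene crhbp, which encodes the protein that binds and sequesters corticotropin-releasing hormone, averaged 19.5 ± 1.39 FPKM in knockout hypoxia, 9.91 ± 0.0999 in knockout normoxia, 12.9 ± 1.43 in wild-type hypoxia and 9.27 ± 0.674 in wild-type normoxia (SD, n = 3 each). It rose with hypoxia in knockout (0.91 ± 0.08, adjusted p = 2.11e-06) and in wild type (0.43 ± 0.08, adjusted p = 0.00101). It was also higher in knockout than in wild type under hypoxia (0.56 ± 0.08, adjusted p = 0.000204). The prohormone convertase gene pcsk2 fell with hypoxia in knockout (-0.50 ± 0.13, adjusted p = 0.00632), while uts1, a peptide gene of the corticotropin-releasing family, rose (0.48 ± 0.13, adjusted p = 0.00832). Genes listed as markers of the tissues that make these hormones were summed. In whole larvae, any other tissue that expresses these genes also enters the sums. The part of the markers in the results above was not tested. Without the genes under study, 11 pituitary markers summed to 20.8 to 24.2 FPKM in hypoxia and 18.9 to 19.4 FPKM in normoxia in knockout larvae, and 20.7 to 21.9 FPKM in hypoxia and 18.6 to 21.8 FPKM in normoxia in wild-type larvae. The knockout sums did not overlap between oxygen levels and the wild-type sums did. The most abundant of the 11 was pitx3. Of the 5 tested, 2 rose and 1 fell with hypoxia in knockout (0 rose under TPM scaling or scaling by recovered reads), and 1 rose and 1 fell in wild type. The shares of all genes were 21.8% and 22.2% in knockout and 16.8% and 19.2% in wild type, so with 5 genes these counts lay near the background. The somatolactin gene smtlb fell, by 1.01 in knockout and by 1.25 in wild type, and the pituitary transcription factor gene lhx3 was higher in hypoxia in wild type by 0.69 ± 0.13. Between genotypes under hypoxia, 1 of the 5 was higher and 1 lower in knockout, beside 17.0% and 16.2% of all genes. The growth hormone gene gh1 was higher by 0.56 ± 0.12 (adjusted p = 0.00436), and lhx3 was lower by 0.43, a call lost in 3 alternatives. The 11 hypothalamic markers, with sst1.1 the most abundant, summed to 57.8 to 71.7 FPKM in hypoxia and 62.4 to 69.6 FPKM in normoxia in knockout larvae. Wild-type sums were 63.2 to 80.1 FPKM in hypoxia and 65.4 to 70.4 FPKM in normoxia. In whole larvae, a change in the number of cells of a type cannot be told apart from a change in RNA per cell.

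**Figure D1:**
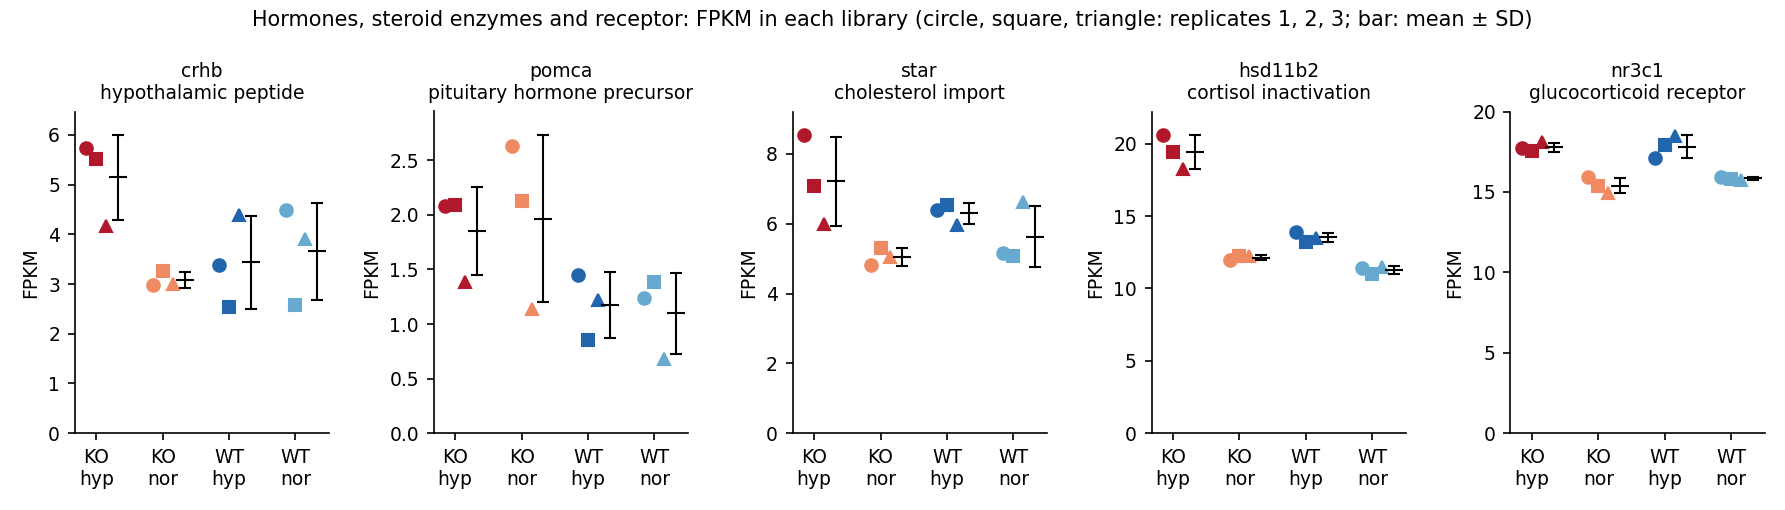
FPKM (vertical axis, from 0) of crhb, pomca, star, hsd11b2 and nr3c1 in each of the 12 libraries; KO hyp, KO nor, WT hyp and WT nor are knockout and wild type in hypoxia and normoxia, point shapes are replicates 1 to 3, and black bars are the mean ± SD. The 3 knockout hypoxia libraries of hsd11b2 stand at 18.3 to 20.6 FPKM, above all others, while pomca and the wild-type values of crhb overlap between groups.

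For cortisol production, star (ENSDARG00000006137, chr8:44703854-44707937, plus strand), the gene of the cholesterol carrier of steroidogenic mitochondria, measured 8.53, 7.10 and 6.00 FPKM in knockout hypoxia and 4.80, 5.30 and 5.05 FPKM in knockout normoxia. The wild type had 6.41, 6.53 and 5.95 FPKM in hypoxia and 5.15, 5.09 and 6.63 FPKM in normoxia. Knockout libraries separated by oxygen and wild-type libraries did not. The rise in knockout was 0.43 ± 0.11 (adjusted p = 0.00727), against 0.15 ± 0.11 in wild type (adjusted p = 0.328, 95% interval -0.09 to 0.39). The difference between the hypoxia effects, 0.28 ± 0.16, did not pass the test (adjusted p = 0.265), and neither genotype contrast did (0.16 ± 0.11 in hypoxia and -0.12 ± 0.11 in normoxia).

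Some markers of the interrenal gland lay near the floor, while 4 of the 10, star among them, passed the filter on low values. Of 15 listed genes of cortisol synthesis, 8 besides star were tested. The receptor for adrenocorticotropic hormone, mc2r, did not exceed 0.18 FPKM, its accessory gene mrap had 0 in all 12 libraries, and the side-chain cleavage copy cyp11a2 did not exceed 0.83 FPKM. With hypoxia 2 of the 8 rose and 1 fell in knockout, and 2 rose and 2 fell in wild type (0 fell without wild-type hypoxia replicate 2 or wild-type normoxia replicate 3). Beside the 21.8% of all genes that rose and 22.2% that fell in knockout, and 16.8% and 19.2% in wild type, these counts of 8 lay near the background. Between genotypes 4 were higher in knockout under hypoxia, or 2 without knockout hypoxia replicate 1 or wild-type hypoxia replicate 2, and 2 were higher in normoxia, beside 17.0% and 7.63% of all genes. The risers with hypoxia were the same in both genotypes: por, the electron donor of microsomal P450 enzymes (1.12 ± 0.07 in knockout and 0.81 ± 0.07 in wild type), and cyp17a1, a steroid hydroxylase-lyase gene (0.69 ± 0.08 and 0.74 ± 0.08), with adjusted p of 2.93e-05 or less for each. The 11-beta-hydroxylase gene cyp11c1, which makes the last step to cortisol, fell with hypoxia in knockout (-0.34 ± 0.10, adjusted p = 0.0124) and was higher in knockout than in wild type in normoxia (0.43 ± 0.10, adjusted p = 0.0105). It averaged 2.53 FPKM in knockout hypoxia, 3.48 in knockout normoxia, 1.90 in wild-type hypoxia and 2.34 in wild-type normoxia, and with hypoxia in knockout its direction was opposite to that of star. The 9 interrenal markers other than star summed to 6.72 to 7.07 FPKM in hypoxia and 6.74 to 7.84 FPKM in normoxia in knockout larvae, and 5.69 to 6.75 FPKM in hypoxia and 6.26 to 6.40 FPKM in normoxia in wild-type larvae.

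At the other end of the hormone's life, hsd11b2 (ENSDARG00000001975, chr7:35112052-35126374, minus strand) encodes the enzyme that converts cortisol to inactive cortisone. It measured 20.6, 19.4 and 18.3 FPKM in knockout hypoxia and 11.9, 12.2 and 12.2 FPKM in knockout normoxia. Wild-type larvae had 13.9, 13.2 and 13.5 FPKM in hypoxia and 11.4, 11.0 and 11.5 FPKM in normoxia. Replicates were tight, and the 4 groups did not overlap. The rise with hypoxia was 0.64 ± 0.05 in knockout (1.60-fold in mean FPKM, adjusted p = 1.61e-06) and 0.24 ± 0.05 in wild type (1.2-fold, adjusted p = 0.00346). The 2 effects differed by 0.39 ± 0.08 (adjusted p = 0.0163), a call that every alternative kept. Knockout exceeded wild type by 0.49 ± 0.05 in hypoxia (adjusted p = 3.31e-05). In normoxia the difference was 0.10 ± 0.05 and did not pass the test (adjusted p = 0.233, 95% interval -0.02 to 0.21), except under TPM scaling (adjusted p = 0.0441).

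Another gene of cortisol clearance moved with it. The gene hsd20b2, whose product reduces cortisone further to 20-beta-hydroxycortisone in zebrafish, averaged 14.0 ± 1.74 FPKM in knockout hypoxia, 4.61 ± 0.458 in knockout normoxia, 7.37 ± 0.608 in wild-type hypoxia and 3.80 ± 0.374 in wild-type normoxia. It rose with hypoxia by 1.42 ± 0.10 in knockout (adjusted p = 3.44e-07) and 0.80 ± 0.10 in wild type (adjusted p = 5.11e-05). A broader list held 7 other tested genes of steroid-metabolizing and conjugating enzymes, not all of which act on cortisol. Of these 7, 5 were higher and 0 lower in knockout than in wild type under hypoxia. The shares of all genes were 17.0% and 16.2%. The median log2 change of the 7 was 0.57, beside -0.00 over all genes. The 5 were hsd20b2, hsd3b7, srd5a2a, ugt1a1 and srd5a2b. The last missed the threshold when either replicate 1 or replicate 2 of wild-type hypoxia was left out, with an adjusted p of 0.0573 at most. The steroid reductase gene srd5a2a averaged 13.2 ± 1.18 FPKM in knockout hypoxia against 5.22 ± 1.31 in wild-type hypoxia. Hypoxia itself moved the list less evenly: ugt1a1, a glucuronidation gene, fell by 0.41 in knockout and by 0.70 in wild type. Because hsd11b2 is known from kidney and ion-transporting epithelium, 16 other markers of kidney and ionocytes were measured. Of these, 9 were higher and 1 lower in knockout than in wild type under hypoxia, beside 17.0% and 16.2% of all genes. The 9 became 5 under TPM scaling or without knockout hypoxia replicate 2, and 6 without knockout hypoxia replicate 3 or wild-type hypoxia replicate 2. Without knockout hypoxia replicate 2 or 3, a gene counted among the 9 also dropped below the filter on low values. With hypoxia 6 rose and 5 fell in knockout, beside 21.8% and 22.2% of all genes. In wild type 2 rose and 4 fell, beside 16.8% and 19.2%. The most abundant of the markers was atp1a1a.1. Together the markers summed to 428 to 442 FPKM in hypoxia and 393 to 410 FPKM in normoxia in knockout larvae. In wild-type larvae they summed to 322 to 363 FPKM in hypoxia and 362 to 373 FPKM in normoxia. Their part in the hsd11b2 result was not tested.

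The receptor gene nr3c1 (ENSDARG00000025032, chr14:23746710-23801389, minus strand) stayed within a narrow range. It measured 17.8, 17.5 and 18.1 FPKM in knockout hypoxia and 15.9, 15.4 and 14.9 FPKM in knockout normoxia. Wild-type values were 17.1, 17.9 and 18.5 FPKM in hypoxia and 15.9, 15.8 and 15.8 FPKM in normoxia. Hypoxia libraries lay above normoxia libraries in both genotypes, and genotypes overlapped. Hypoxia gave 0.20 ± 0.05 in knockout (adjusted p = 0.00552) and 0.16 ± 0.05 in wild type (adjusted p = 0.0205). Both calls depended on scaling: when scaled by recovered reads the values were 0.07 (adjusted p = 0.336) and 0.09 (adjusted p = 0.203), and under TPM scaling 0.05 (adjusted p = 0.570) and 0.13 (adjusted p = 0.117). The wild-type call was also lost without wild-type hypoxia replicate 3 (adjusted p = 0.0678), normoxia replicate 2 (0.0507) or normoxia replicate 3 (0.0577), and with only the compared groups in the fit (0.0660). Recovered reads of nr3c1 were 1471 to 1498 in hypoxia and 1382 to 1482 in normoxia in knockout larvae, and 1443 to 1594 in hypoxia and 1404 to 1470 in normoxia in wild-type larvae. Between genotypes the difference was -0.00 ± 0.05 in hypoxia (95% interval -0.11 to 0.10) and -0.04 ± 0.05 in normoxia (95% interval -0.14 to 0.07).

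Several chaperones that hold the receptor fell where fkbp5 rose. Among 14 tested genes for the mineralocorticoid receptor, chaperones and coregulators besides nr3c1 and fkbp5, 9 fell and 2 rose with hypoxia in knockout (median log2 change -0.38). In wild type 7 fell and 2 rose (median -0.29). Beside these counts, 22.2% of all genes fell and 21.8% rose in knockout, and 19.2% and 16.8% in wild type. The co-chaperone fkbp4, which binds Hsp90 at the same place as Fkbp5, averaged 22.0 ± 1.04 FPKM in knockout hypoxia and 38.1 ± 1.28 in knockout normoxia (-0.77 ± 0.06, adjusted p = 6.21e-07). It averaged 23.6 ± 0.745 FPKM in wild-type hypoxia and 42.3 ± 2.77 in wild-type normoxia (-0.81 ± 0.06, adjusted p = 6.24e-07). The p23 gene ptges3b and the Hsp70-family gene hspa4a fell in both genotypes as well, by 0.76 and 0.77 in knockout and by 0.87 and 1.07 in wild type. The 2 that rose in each genotype were hsp90ab1 and hspa8, and the knockout call of hsp90ab1 was lost under TPM scaling and under scaling by recovered reads (adjusted p up to 0.219). The inducible Hsp90 gene hsp90aa1.2 differed between genotypes in its response, at 24.5 ± 2.24 FPKM in knockout hypoxia, 22.0 ± 0.563 in knockout normoxia, 15.5 ± 0.458 in wild-type hypoxia and 28.2 ± 0.514 in wild-type normoxia. The difference of its hypoxia effects was 0.97 ± 0.09 (adjusted p = 0.000452).

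In contrast to those chaperones, fkbp5 (ENSDARG00000028396, chr6:41096058-41117242, plus strand), whose product restrains the receptor and is itself induced by it, measured 27.5, 31.0 and 20.8 FPKM in knockout hypoxia and 10.0, 14.8 and 14.1 FPKM in knockout normoxia. Wild-type larvae had 12.3, 12.7 and 18.6 FPKM in hypoxia and 9.29, 7.74 and 10.9 FPKM in normoxia. Knockout hypoxia stood apart, and knockout normoxia overlapped both wild-type groups. The rise with hypoxia was 0.97 ± 0.19 in knockout (2.04-fold, adjusted p = 0.00106) and 0.58 ± 0.19 in wild type (1.56-fold, adjusted p = 0.0276). The wild-type call was lost with no filter (adjusted p = 0.0587) and without hypoxia replicate 3 (0.40, adjusted p = 0.113), normoxia replicate 1 (adjusted p = 0.0628) or normoxia replicate 2 (adjusted p = 0.104). The effects differed by 0.39 ± 0.26, which did not pass the test (adjusted p = 0.359). Knockout exceeded wild type by 0.83 ± 0.19 in hypoxia (adjusted p = 0.00484). In normoxia the value was 0.43 ± 0.19 (adjusted p = 0.131), which passed with voom on recovered reads (0.47, adjusted p = 0.0452).

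**Figure D2:**
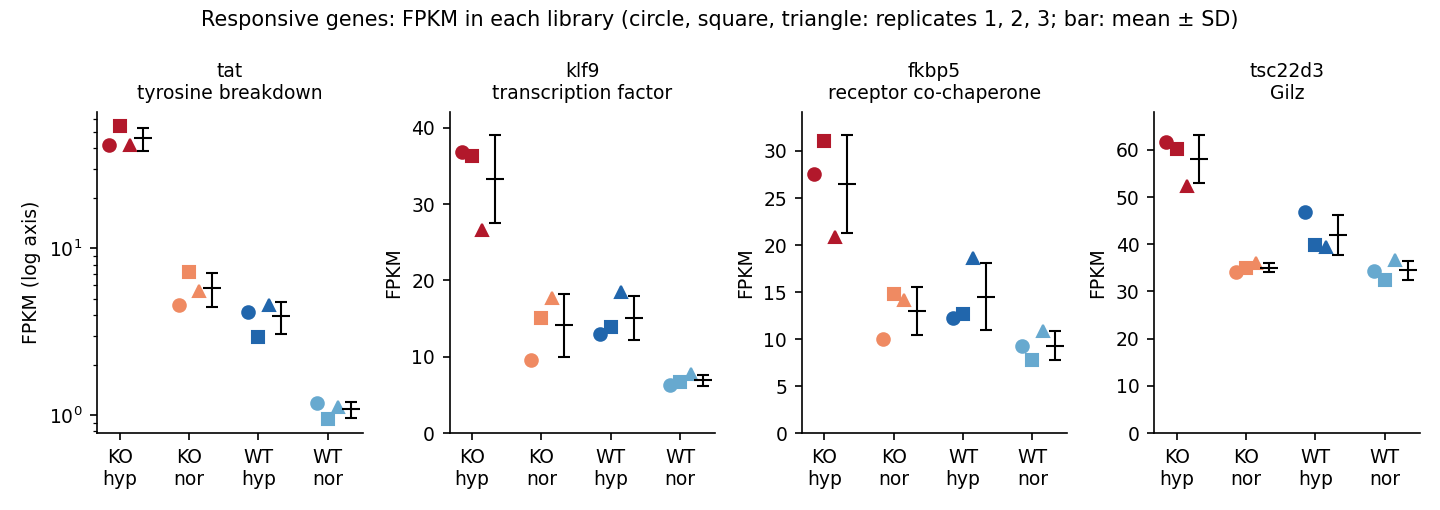
FPKM of tat (log axis) and of klf9, fkbp5 and tsc22d3 (axes from 0) in each library, by group; point shapes are replicates 1 to 3, and black bars are the mean ± SD. The knockout hypoxia libraries lie above the other 9 in all 4 panels, and tat spans 0.956 to 54.1 FPKM.

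Of the readout genes, tsc22d3 (ENSDARG00000075666, chr14:27998756-28001986, minus strand), which encodes the anti-inflammatory leucine zipper protein Gilz, had the highest level and a moderate response. It measured 61.7, 60.1 and 52.3 FPKM in knockout hypoxia and 34.1, 34.9 and 36.1 FPKM in knockout normoxia. Wild-type larvae had 46.8, 39.8 and 39.4 FPKM in hypoxia and 34.2, 32.5 and 36.6 FPKM in normoxia. The genotypes overlapped in normoxia and separated in hypoxia. The rise was 0.71 ± 0.08 in knockout (1.66-fold, adjusted p = 1.48e-05) and 0.28 ± 0.08 in wild type (1.22-fold, adjusted p = 0.0143). The wild-type call was lost without hypoxia replicate 1 (adjusted p = 0.0551) or normoxia replicate 2 (adjusted p = 0.0574). Knockout minus wild type was 0.46 ± 0.08 in hypoxia (adjusted p = 0.000826) and 0.02 ± 0.08 in normoxia (adjusted p = 0.863, 95% interval -0.14 to 0.19). The effects of hypoxia differed by 0.43 ± 0.11 (adjusted p = 0.0314). This call was lost with no filter (adjusted p = 0.0544) and in 8 of 12 fits that left out a library, where the value stayed between 0.39 and 0.45 and adjusted p did not exceed 0.0794.

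The transcription factor gene klf9 (ENSDARG00000068194, chr5:26075230-26078165, plus strand), a receptor target in fish and mammals, measured 36.9, 36.2 and 26.6 FPKM in knockout hypoxia and 9.58, 15.1 and 17.7 FPKM in knockout normoxia. Wild-type values were 13.0, 13.9 and 18.4 FPKM in hypoxia and 6.34, 6.66 and 7.76 FPKM in normoxia. Knockout normoxia and wild-type hypoxia shared a middle range, with knockout hypoxia above it and wild-type normoxia below. Hypoxia raised klf9 by 1.2 ± 0.19 in knockout (2.36-fold, adjusted p = 0.000282) and by 1.01 ± 0.19 in wild type (2.18-fold, adjusted p = 0.00128). The knockout was higher by 1.09 ± 0.19 in hypoxia (2.2-fold, adjusted p = 0.00107) and by 0.90 ± 0.19 in normoxia (2.04-fold, adjusted p = 0.00763). The hypoxia effects differed by 0.19 ± 0.27 (adjusted p = 0.694, 95% interval -0.40 to 0.78), an interval too wide to show that they were equal.

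The tyrosine aminotransferase gene tat (ENSDARG00000069630, chr18:13162728-13179510, plus strand), whose product starts tyrosine breakdown in liver and whose mammalian gene is a textbook glucocorticoid target, changed most among the 9. It measured 41.5, 54.1 and 41.5 FPKM in knockout hypoxia and 4.55, 7.20 and 5.58 FPKM in knockout normoxia. Wild-type larvae had 4.18, 2.95 and 4.61 FPKM in hypoxia and 1.18, 0.956 and 1.11 FPKM in normoxia. Knockout normoxia and wild-type hypoxia again met in the middle, with 1 wild-type library above the lowest knockout library. The rise with hypoxia was 2.79 ± 0.16 in knockout (7.91-fold in mean FPKM, adjusted p = 5.11e-08) and 1.22 ± 0.16 in wild type (3.61-fold, adjusted p = 6.66e-05). Knockout exceeded wild type by 3.25 ± 0.16 in hypoxia (11.7-fold, adjusted p = 6.13e-08) and by 1.69 ± 0.16 in normoxia (5.34-fold, adjusted p = 1.93e-05). The hypoxia effects differed by 1.57 ± 0.22 (adjusted p = 0.00461), and that call held in every alternative, although the value shrank to 1.23 at a pseudocount of 0.1 (adjusted p = 0.0203) and to 1.18 in voom on reads (adjusted p = 0.022). Adding 1 to FPKM shrinks the wild-type rise, which starts from low values, more than the knockout rise, and so enlarges the difference. The fold changes in mean FPKM, 7.91 and 3.61, stood in a ratio of 2.19. The lowest group had 32 to 41 reads per library.

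**Figure D3:**
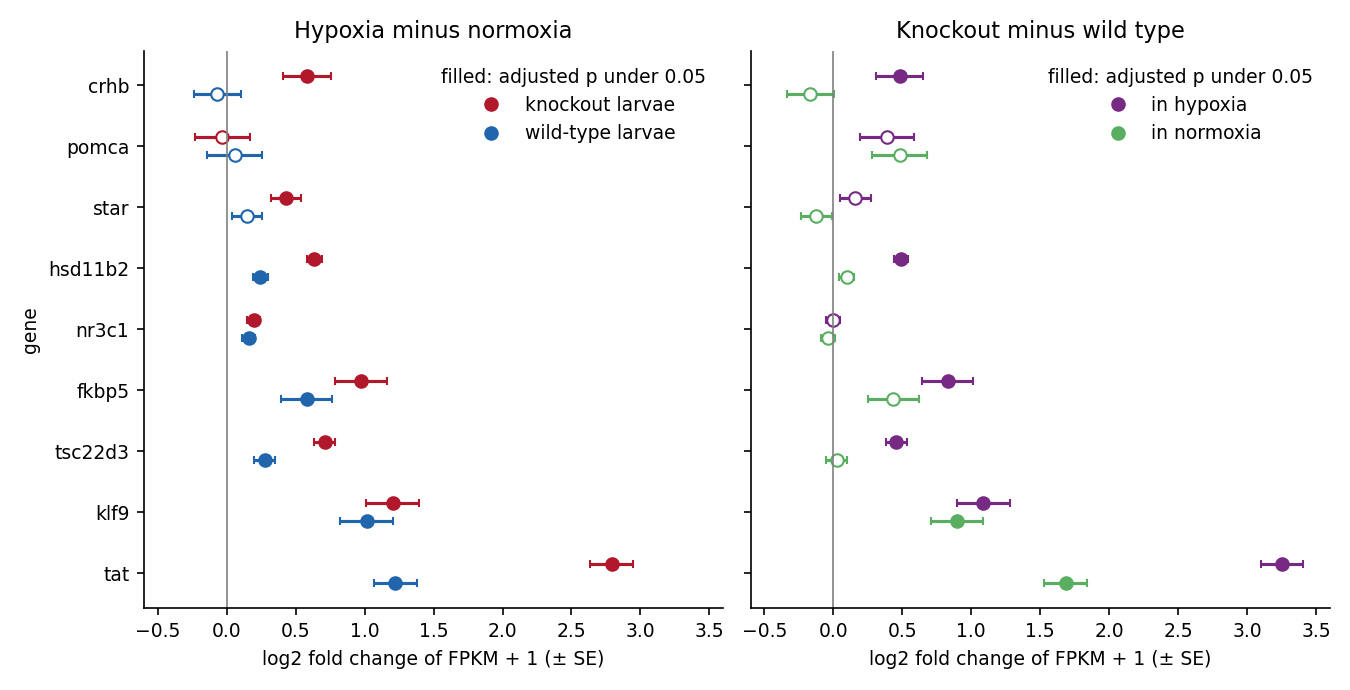
Log2 fold changes of FPKM + 1 with standard errors (horizontal axes) of the 9 genes (rows), for hypoxia minus normoxia (left; knockout red, wild type blue) and knockout minus wild type (right; hypoxia purple, normoxia green). Filled points have adjusted p under 0.05; tat reaches 2.79 for hypoxia in knockout and 3.25 for knockout in hypoxia, while nr3c1 between genotypes lies at -0.00 and -0.04.

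Counted together, each of the 9 genes that passed a test was higher, not lower, in the group named first. With hypoxia, 8 of 9 were higher in knockout (all but pomca), where 44.0% of all tested genes were called and 21.8% were called higher. In wild type 6 of 9 were higher (nr3c1, hsd11b2 and the 4 genes fkbp5, tsc22d3, klf9 and tat), where 36.0% were called and 16.8% were higher. Without wild-type normoxia replicate 2 the wild-type count was 3. The 6 were also higher in knockout, and 11.0% of all genes were higher with hypoxia in both genotypes. Between genotypes 6 were higher in knockout under hypoxia (crhb, hsd11b2, fkbp5, tsc22d3, klf9, tat), where 33.1% were called and 17.0% were higher. This count was 5 or 6 when single libraries were left out, since the call of crhb was marginal. In normoxia 2 were higher (klf9 and tat), where 16.7% were called and 7.63% were higher. The interaction was called for 3 (hsd11b2, tsc22d3, tat), against 9.25% of all genes and 4.74% with a positive value. With single libraries left out, the interaction was called for 2 to 4 of the 9. None was called lower in any comparison, against 22.2%, 19.2%, 16.2%, 9.11% and 4.5% of all genes called lower in the 5 comparisons as listed here. Libraries of the 2 groups did not overlap, with the higher values in the group named first, for 8 genes for hypoxia in knockout (27.3% of all genes), 6 for hypoxia in wild type (22.4%), 5 for genotype in hypoxia (21.4%) and 3 for genotype in normoxia (18.8%). The third of these 3 was hsd11b2. The median log2 change of the 9 was 0.64 for hypoxia in knockout, 0.24 for hypoxia in wild type, 0.48 for knockout in hypoxia and 0.10 for knockout in normoxia, with medians over all genes between -0.01 and 0.01.

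The list of other glucocorticoid-responsive genes was drawn up from general knowledge, but with earlier results of these data known. It held 36 besides the 4, of which 35 were tested. With hypoxia 25 rose and 1 fell in knockout (median 0.71), beside 21.8% and 22.2% of all genes. In wild type 24 rose and 2 fell (median 0.38), beside 16.8% and 19.2%. Between genotypes 26 were higher and 0 lower in knockout under hypoxia (median 0.48), beside 17.0% and 16.2%. In normoxia 14 were higher and 1 lower (median 0.19), beside 7.63% and 9.11%. Many genes of the list also respond to hypoxia, fasting or amino acid stress, so the list is not specific to the hormone. The gluconeogenic gene pck1 averaged 209 ± 10.5 FPKM in knockout hypoxia, 48.6 ± 1.34 in knockout normoxia, 146 ± 13.4 in wild-type hypoxia and 27.4 ± 1.83 in wild-type normoxia. It rose by 2.08 ± 0.07 in knockout and 2.37 ± 0.07 in wild type, and the difference of -0.29 ± 0.10 did not pass the test (adjusted p = 0.0761). The mTOR-restraining gene ddit4 rose by 2.96 ± 0.11 in knockout, to 82.3 ± 16.8 FPKM in hypoxia against 9.57 ± 0.745 in normoxia. In wild type ddit4 rose by 2.46 ± 0.11, to 49.8 ± 2.2 FPKM in hypoxia against 8.26 ± 0.197 in normoxia, and the difference between the effects, 0.51 ± 0.15, did not pass the test (adjusted p = 0.0542). The growth-factor-binding gene igfbp1b and the metallothionein gene mt2 were higher in knockout hypoxia than in wild-type hypoxia, at 16.1 ± 1.39 against 5.50 ± 0.641 FPKM and 104 ± 14.4 against 46.2 ± 5.93 FPKM. The thioredoxin-interacting gene txnipa was the 1 gene called lower in knockout under normoxia, with 85.9 ± 1.16 FPKM in knockout and 106 ± 3.21 in wild type.

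For the interaction, 10 of these 35 genes had a larger rise with hypoxia in knockout, beside 4.74% of all genes with a positive call. The glucose-6-phosphatase gene g6pca.1 was the 1 with a smaller rise (-0.53 ± 0.14, adjusted p = 0.0347), beside 4.5% of all genes with a negative call. The counts of 10 and 1 were unstable: they were 2 and 0 without knockout hypoxia replicate 1 or without wild-type normoxia replicate 1, 4 and 3 under TPM scaling, and 8 of the 12 fits that left out a library gave at most 6 positive calls. The glutamine synthetase genes glulb and glula kept their calls in every alternative. Their hypoxia effects differed by 0.70 ± 0.10 (adjusted p = 0.00467) and 0.72 ± 0.14 (adjusted p = 0.0164). As with tsc22d3, no genotype difference of glula was called in normoxia, at 70.9 FPKM in knockout and 68.8 in wild type (adjusted p = 0.808), and glula stood at 156 FPKM in knockout hypoxia against 92.1 in wild-type hypoxia.

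**Figure D4:**
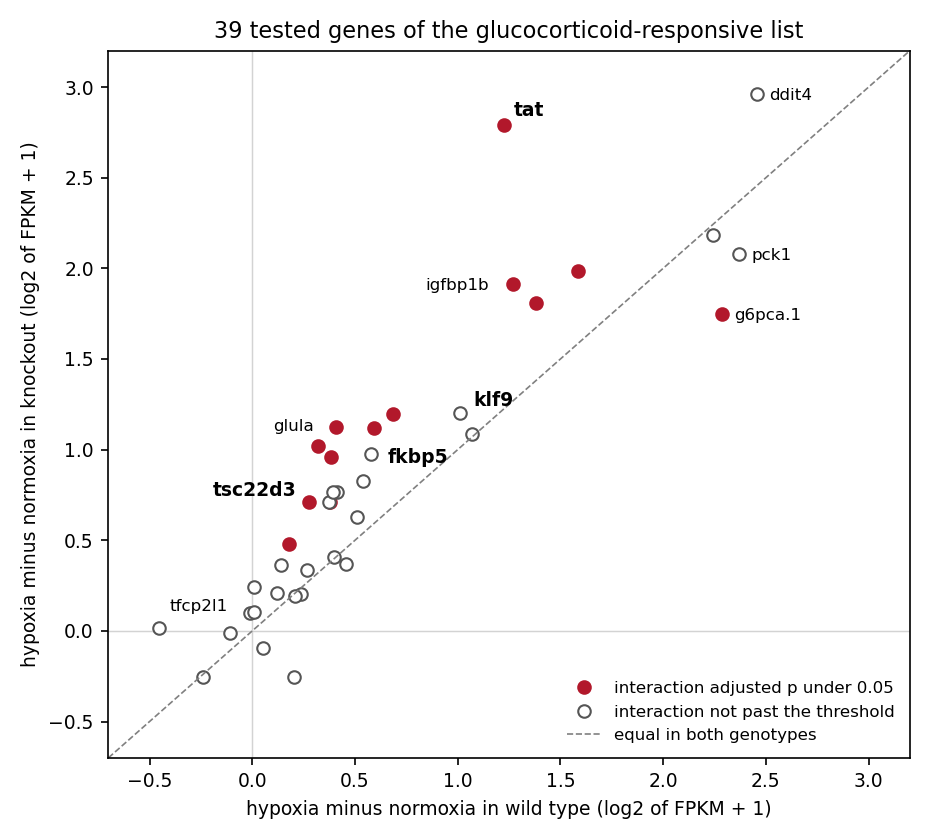
Hypoxia minus normoxia in knockout (vertical axis) against the same in wild type (horizontal axis), both as log2 of FPKM + 1, for the 39 tested genes of the glucocorticoid-responsive list, members included. Red points passed the interaction test; tat lies at 1.22 and 2.79, well above the dashed line of equal change, and klf9 and fkbp5 lie nearer to it.

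Because tat is also an enzyme of amino acid breakdown, 22 other tested genes of that pathway in liver were set beside it. Under hypoxia 19 of the 22 were higher and 0 lower in knockout than in wild type (median 0.55). The 19 fell as low as 18 when a single library was left out, because a gene then dropped below the filter on low values. In normoxia 11 were higher and 0 lower (median 0.30). The shares of all genes were 17.0% higher and 16.2% lower in hypoxia, and 7.63% and 9.11% in normoxia. Hypoxia itself moved the pathway both ways, with 14 higher and 6 lower in knockout, beside 21.8% and 22.2% of all genes. The 14 ranged from 12 to 14 when single libraries were left out. In wild type 7 were higher and 6 lower (4 higher without wild-type normoxia replicate 3), beside 16.8% and 19.2%. The alanine-glyoxylate aminotransferase gene agxtb averaged 282 ± 22.2 FPKM in knockout hypoxia, 45.8 ± 0.823 in knockout normoxia, 109 ± 17.3 in wild-type hypoxia and 15.1 ± 1.57 in wild-type normoxia. The next enzyme after Tat in tyrosine breakdown, hpda, averaged 34.1 ± 0.516 FPKM in knockout hypoxia against 16.6 ± 2.05 in wild-type hypoxia (1.01 ± 0.08, adjusted p = 2.71e-06). The tryptophan-pathway genes tdo2a, kmo, haao and kynu fell with hypoxia in both genotypes. The tdo2a call in wild type was lost without hypoxia replicate 2 or normoxia replicate 2, with adjusted p up to 0.0560. The listed genes fah and sdsl fell in both genotypes as well, by 0.41 and 0.71 in knockout and by 0.36 and 0.77 in wild type. In wild type the fah call was lost in 5 alternatives (adjusted p up to 0.118).

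Liver markers were measured because tat is made there. Summed over 15 liver markers, levels were 3692 to 3902 FPKM in hypoxia and 3666 to 3859 FPKM in normoxia in knockout larvae, and 3589 to 4453 FPKM in hypoxia and 3752 to 4737 FPKM in normoxia in wild-type larvae. Of 14 tested, 7 were higher and 1 lower in knockout than in wild type under hypoxia, beside 17.0% and 16.2% of all genes. In normoxia 4 were higher and 1 lower, beside 7.63% and 9.11%. The liver fatty acid binding gene fabp10a was among those higher in knockout, by 1.13 ± 0.07 in hypoxia and 0.82 ± 0.07 in normoxia. With hypoxia the list moved both ways, with 5 of the 14 higher and 3 lower in knockout, beside 21.8% and 22.2% of all genes. In wild type 4 were higher and 2 lower, beside 16.8% and 19.2%. The gene fabp10a fell, by 1.18 in knockout and by 1.49 in wild type, whereas the hemopexin gene hpx rose by 0.95 ± 0.12 in knockout and 0.85 ± 0.12 in wild type, and the fibrinogen gene fgg by 1.2 ± 0.09 in knockout and 0.56 ± 0.09 in wild type. Between genotypes hpx was higher in knockout by 2.86 ± 0.12 in hypoxia and 2.77 ± 0.12 in normoxia. The most abundant marker, apoa2, was at 2548 FPKM in knockout hypoxia and 2796 in wild-type hypoxia. It made up most of the sums in hypoxia, so they do not measure liver content evenly over the markers. The part of liver content in the tat result was not tested.

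Among replicates, fkbp5 and klf9 varied together. The library with the highest fkbp5 in wild-type hypoxia (replicate 3) also had the highest klf9, and the lowest in knockout hypoxia (replicate 3) and in knockout normoxia (replicate 1) were lowest in both. Over the 12 libraries the correlation of log2(FPKM + 1) was 0.97, and for deviations from the group means it was 0.88, given as a description since the points share libraries and scaling. The pair tsc22d3 and hsd11b2 had 0.98 and 0.84, and star and hsd11b2 0.76 and 0.80. By contrast, tsc22d3 and klf9 had 0.86 over libraries and 0.28 within groups, so the readout genes did not all vary together. The receptor gene nr3c1 had 0.68 with tsc22d3 over libraries. Within groups its values ranged from -0.73 with tsc22d3 to 0.20 with pomca.

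**Figure D5:**
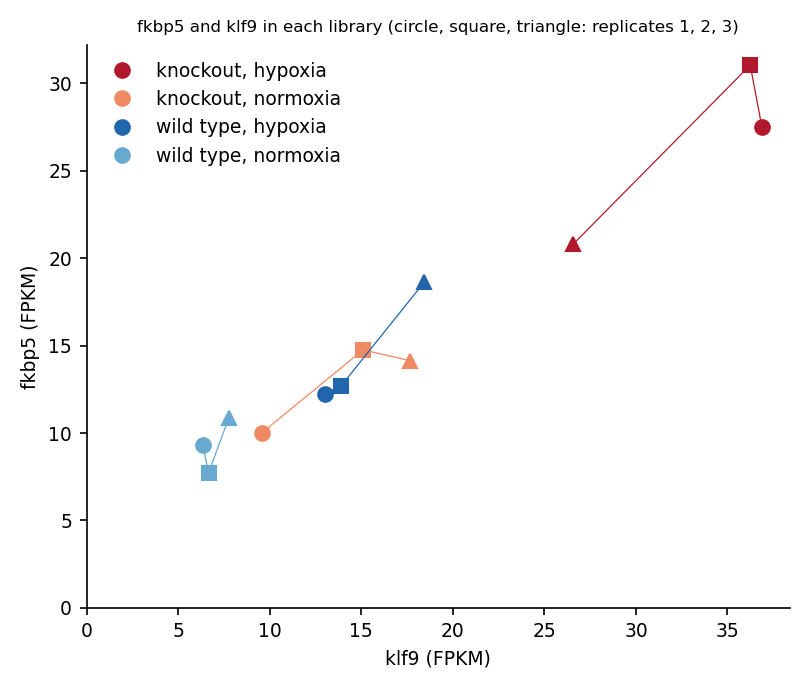
fkbp5 (vertical axis) against klf9 (horizontal axis), both in FPKM, in the 12 libraries; colours are groups, shapes are replicates 1 to 3, and thin lines join the libraries of a group. Within knockout hypoxia replicate 3 is lowest in both genes (26.6 FPKM of klf9 and 20.8 of fkbp5), and within wild-type hypoxia replicate 3 is highest in both (18.4 and 18.6).

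Genes most like each of the 9 were taken by the highest correlation of log2(FPKM + 1) over the 12 libraries, again as a description. For fkbp5 the closest was klf9 itself, and for klf9 it was the copy slc3a2b (listed as SLC3A2), an amino acid transporter subunit gene, with 0.98. For tat they were the glutamate dehydrogenase gene glud1b (0.99), the cytochrome P450 gene cyp1a (listed as CYP1A1, 0.99) and the ammonia channel gene rhcgb (0.99). For hsd11b2 they included eef1da, an elongation factor subunit gene (0.99), and the gluconeogenic fbp1b (0.99). For tsc22d3 they were the genes listed as ROMO1 (0.99), ATG4B (0.98) and PNO1 (0.98). The genes closest to nr3c1 were mmrn2a (0.97) and the one listed as ABCA12 (0.97), and for star they were TRIB3 (0.95), fgf24 (0.94) and ATP6V1H (0.94). For crhb the named genes were FSTL1 (0.93) and gng8 (0.92), and for pomca OPN4, described as opsin 4b (0.90). Each is a description over 12 libraries that share 4 group means.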

How the data were processed

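Polyadenylated RNA of whole larvae was sequenced in 12 libraries; groups and replicate numbers come from the sample titles. The authors deposited FPKM per gene; per the submitters' processing notes fastp, HISAT2 2.2.1, featureCounts 2.0.6 and GRCz11 were used. How the FPKM were scaled is not given in the sources used here. FPKM times gene length fell in whole steps (100% of values above 0 within 0.05 of a step), which gave the reads; the authors' divisor was 0.945 to 0.980 of these reads in hypoxia and 1.06 to 1.07 in normoxia for knockout, and 0.950 to 0.997 in hypoxia and 1.01 to 1.04 in normoxia for wild type. Genes with at least 1 FPKM in at least 3 libraries were kept. log2(FPKM + 1) was fitted with limma 3.58.1 (R 4.3.3) over all 12 libraries with 4 group means and a variance trend; 4 contrasts and the interaction were adjusted by Benjamini-Hochberg at 0.05. The fit was also run on simulated reads with the same small spread set for every gene. That run does not cover genes that vary more between replicates, such as fkbp5 and klf9. Python 3.11.15 made tables and figures. The 9 genes and all lists were chosen with earlier results of these data known. Of 170 listed symbols, 168 were found. Beyond the 9, named genes were up to 3 per list and comparison with the smallest p among called genes with non-overlapping libraries, the top gene of each marker list and the 3 most correlated genes; mc2r, mrap, cyp11a2 and the other names in list counts were added after their values were seen, as was fabp10a. Clone names and bare identifiers were left out. Same-numbered libraries did not deviate together (18 pairs, r -0.087 to 0.119, 1 above 0.1), so replicates were not paired. Promoter and protein sequences were not used here.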

Additional observations from a re-analysis of the deposited data

Results flagged for a closer look

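The effect of hypoxia differed between genotypes for 3 of the 9 genes by the interaction test in limma. For tat the effect in knockout exceeded that in wild type by 1.57 on the log2 scale (adjusted p = 0.00461), with every knockout hypoxia library above every other library. The pseudocount of 1 enlarged that excess, which was 1.23 with a pseudocount of 0.1 and 1.18 in voom on reads. For hsd11b2 the excess was 0.39 (adjusted p = 0.0163). For tsc22d3 it was 0.43 (adjusted p = 0.0314), the only one of the 3 whose call was lost in some alternatives.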

How the results depend on the processing

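Of 926 values of the 9 genes under alternatives, 865 kept direction and side of the threshold, 37 lost a call, 5 gained one and 19 changed sign. The wild-type hypoxia count of the 9 ranged from 3 to 6 when single libraries were left out. The count of all genes called for genotype in normoxia ranged from 2043 to 3981, and for the interaction from 481 to 2840, with 1230 with no filter and 3000 with voom, against 1986; without a library fewer samples entered each fit. Sign changes were confined to values that did not pass the test. With single libraries left out, values that changed sign ranged for hypoxia in wild type from -0.247 to 0.0862 for crhb and -0.0944 to 0.169 for pomca, and for hypoxia in knockout from -0.253 to 0.130 for pomca. They ranged for genotype from -0.0153 to 0.0679 for tsc22d3 in normoxia and -0.0309 to 0.0223 for nr3c1 in hypoxia, and for the interaction from -0.312 to 0.0714 for pomca and -0.0461 to 0.363 for klf9. TPM scaling and scaling by recovered reads (the second chosen after seeing the data) gave 0.0259 and 0.0125 for nr3c1 between genotypes in normoxia and -0.0847 and -0.0264 for its interaction. These scalings moved the median of all genes for hypoxia in knockout to -0.12 and -0.11, with 2785 genes higher and 7243 lower, and 3034 and 6975, against 4684 and 4767. For hypoxia in wild type reads scaling gave 2685 and 5211, against 3598 and 4125. For genotype in normoxia they gave 2141 and 1252, and 2149 and 1441, against 1638 and 1957; for genotype in hypoxia TPM scaling gave 2823 and 4238, against 3641 and 3470; for the interaction they gave 426 and 1720, and 690 and 1271, against 1019 and 967. The cause of these shifts was not tested. With the replicate number as a block, counts of the 9 were 8 for hypoxia in knockout and 6 in wild type, 6 and 2 for genotype in hypoxia and normoxia, and 3 for the interaction; 1979 genes were called for the interaction, and the block changed no call of the 9. A filter at 5 FPKM removed crhb and pomca. Low read counts limit pomca and crhb.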
